A study of Mus musculus with 8 samples.

Results

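Dppa2, Dppa3, Dppa4 and Dppa5a are the mouse developmental pluripotency-associated genes that were measured as protein-coding rows in both deposited gene tables. They were chosen by name, as the rows that map to these symbols, and they make up 4 of the 17409 genes present in both tables. All libraries came from J1 mouse embryonic stem (ES) cells, an established line, grown on gelatin with 15% serum and 10 ng/ml LIF, the cytokine that keeps mouse ES cells undifferentiated. There were 2 libraries in each of 4 groups. KD Zscan4 cells carried a pSuper puro plasmid with an shRNA to Zscan4, and KD control cells carried a random control shRNA plasmid. Both received 2 µg/ml puromycin for 7 days. OE Zscan4 cells carried the coding region of Zscan4c in pCMV-tag2, and OE control cells came from the same protocol with a control plasmid whose insert, if any, the labels do not name. Both received 500 µg/ml G418 for 10 days. Every group was transfected with 1000 ng of plasmid, put under its drug 24 h later, and grown from picked single clones. The labels do not say whether the replicates of a group were separate clones or cultures, so p-values measure the spread between these libraries, which may be technical.

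The symbols share a naming history more than a function: the genes were named for expression in pluripotent cells, and their proteins fall into unrelated families apart from Dppa2 and Dppa4. Dppa2 and Dppa4 encode nuclear proteins with a SAP domain, a short DNA-binding fold, that form a complex on chromatin. In mouse ES cells this complex is known to act upstream of Dux and of the 2-cell-like state, a rare state in which genes of the 2-cell embryo, the Zscan4 cluster among them, are transcribed. Dppa3, also called Stella or PGC7, encodes a maternal-effect protein that binds Uhrf1 and limits both maintenance DNA methylation and, in the zygote, Tet3-driven oxidation. Dppa5a, also called Esg1, encodes an RNA-binding protein with a KH-like domain that is abundant in ES cells.

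The 8 libraries held 17392177 to 22381633 reads assigned to genes. Values within an arm are reads divided by the authors' size factor for each library, called normalised reads here. Differences are log2 of normalised reads + 1, tested with limma-trend and adjusted by the Benjamini-Hochberg method over all genes of a table, with a threshold of 0.05. The labels were checked on the targeted gene. Zscan4c, a transcription factor of the 2-cell embryo, averaged 13.3 ± 3.09 normalised reads in KD Zscan4 cells and 570 ± 6.31 in KD control cells, and 1027 ± 65.8 in OE Zscan4 cells and 67.6 ± 10.7 in OE control cells (SD, n = 2 each). Its near-identical copies share reads with it, so the value of a single copy is uncertain.

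Dppa2 was lower after Zscan4 knockdown and higher after Zscan4c overexpression, and Dppa4 did the same at a smaller size. Dppa3 did not pass the test in the knockdown and fell under overexpression. Dppa5a did not pass in the knockdown and rose slightly under overexpression. Of the 4 genes, 2 passed in the knockdown, where 35.7% of all 17938 genes passed. All 4 passed under overexpression, where 44.3% of 18292 genes passed.

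**Figure D1:**
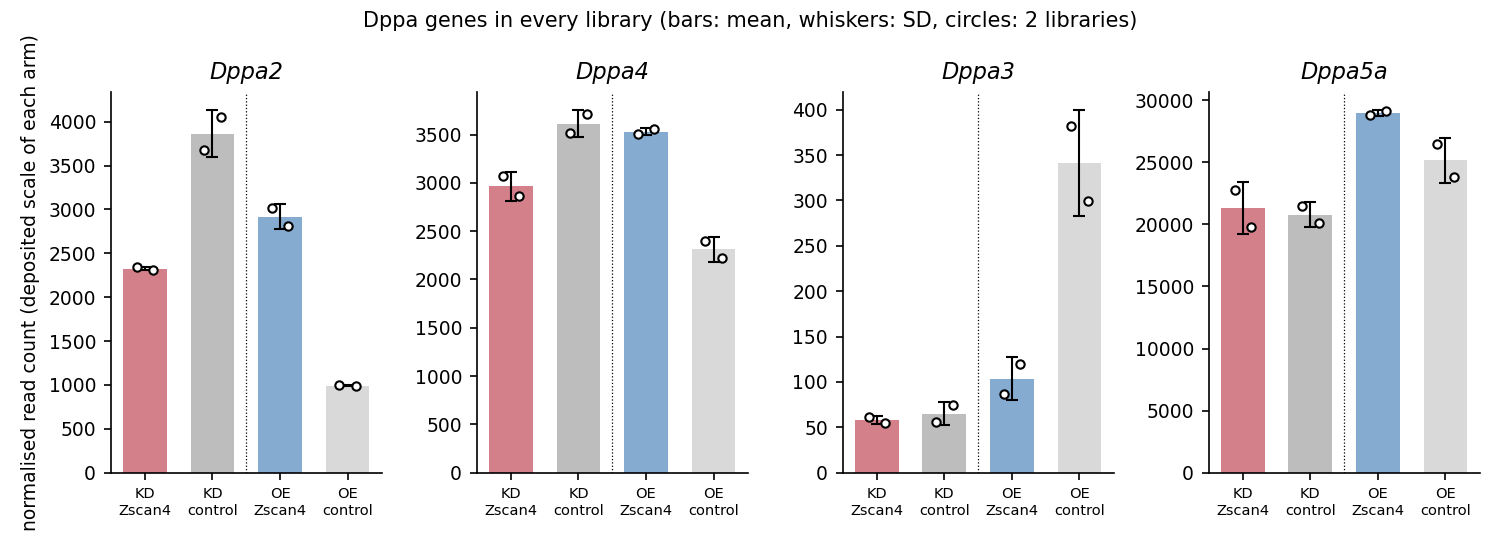
Normalised reads of Dppa2, Dppa3, Dppa4 and Dppa5a in each of the 8 libraries (circles), by group, with the group mean (bar) and SD (whisker); each panel has its own axis from 0. Dppa2 lies at or below 2342 in both KD Zscan4 libraries and at or above 3675 in both KD control libraries, while Dppa3 lies lower in every other library than in those of OE control.

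Dppa2 (ENSMUSG00000072419) lies on the plus strand of chromosome 16 at 48303908 to 48319723 in GRCm38 (mm10). It had 2342 and 2311 normalised reads in KD Zscan4 cells, against 3675 and 4053 in KD control cells. Both knockdown libraries lay below both of their controls, as for 33.8% of all genes in the knockdown. The log2 fold change was -0.73 (SE 0.06, limma-trend adjusted p = 2.09e-06), a 1.66-fold lower level. In the overexpression arm Dppa2 had 3017 and 2815 normalised reads in OE Zscan4 cells, against 997 and 990 in OE control cells. Here both OE Zscan4 libraries lay above both controls, as for 35.7% of all genes under overexpression. The log2 fold change was 1.55 (SE 0.07, limma-trend adjusted p = 2.61e-11), a 2.93-fold higher level. A larger change in either direction was seen in 17.1% of genes in the knockdown and in 4.81% of genes under overexpression. In bulk RNA, fewer cells that express a gene and less RNA per cell cannot be told apart.

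Dppa4 (ENSMUSG00000058550), the partner of Dppa2, lies just upstream on the same strand, at 48283733 to 48294237 of chromosome 16, and 9670 bp separate its end from the start of Dppa2. It had 3072 and 2861 normalised reads in KD Zscan4 cells, against 3515 and 3712 in KD control cells. The groups did not overlap, as for 67.8% of all genes in the knockdown (33.8% lower and 34.0% higher). The log2 fold change was -0.29 (SE 0.06, limma-trend adjusted p = 0.00203). In the overexpression arm Dppa4 had 3506 and 3553 normalised reads in OE Zscan4 cells, against 2403 and 2220 in OE control cells. These groups did not overlap either, as for 71.2% of all genes under overexpression (35.7% higher and 35.5% lower). The log2 fold change was 0.61 (SE 0.07, limma-trend adjusted p = 1.44e-06), or 1.53-fold higher. In the knockdown 47.9% of all genes changed by more than Dppa4 did, in either direction.

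The difference between the arms was itself tested, as the overexpression effect minus the knockdown effect over the 17409 shared genes, of which 44.7% passed (22.9% above 0 and 21.8% below). It was 2.28 (SE 0.09, limma-trend adjusted p = 1.53e-11) for Dppa2 and 0.90 (SE 0.09, limma-trend adjusted p = 5.28e-07) for Dppa4, both on the log2 scale. For Dppa3 it was -1.56 (SE 0.28, limma-trend adjusted p = 2.45e-04). For Dppa5a it was 0.17 (SE 0.10, limma-trend adjusted p = 0.174), which did not pass.

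**Figure D2:**
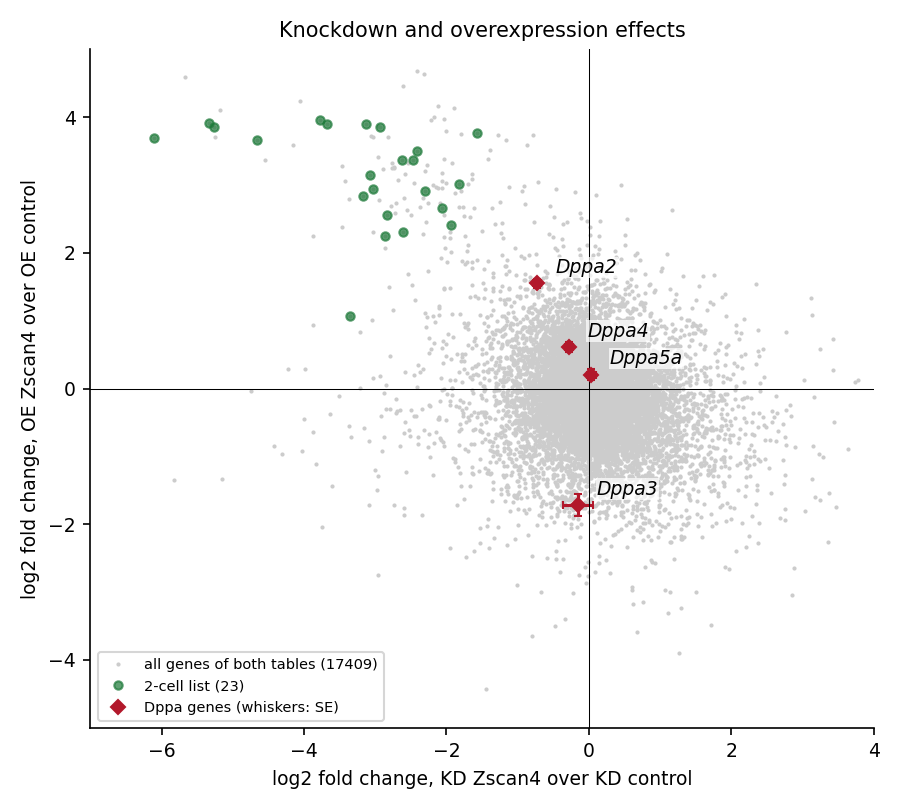
Log2 fold change under overexpression (OE Zscan4 over OE control, vertical) against log2 fold change in the knockdown (KD Zscan4 over KD control, horizontal) for the genes of both tables that fall inside the axes (17399), with the 4 Dppa genes as red diamonds with standard errors as whiskers and the 2-cell list in green. Dppa2 and Dppa4 lie in the part of the plot with lower values in the knockdown and higher values under overexpression, and Dppa3 lies below 0 under overexpression.

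Dppa2 and Dppa4 were compared with each other per kilobase of annotated exon, because their transcripts differ in length. The ratio of Dppa2 to Dppa4 was 0.518 and 0.549 in KD Zscan4 cells, against 0.710 and 0.742 in KD control cells. It was 0.584 and 0.538 in OE Zscan4 cells, against 0.282 and 0.303 in OE control cells. Dppa4 was thus the more abundant of the pair per kilobase in every library. The ratio was lower in KD Zscan4 than in KD control cells and higher in OE Zscan4 than in OE control cells, with no overlap in either arm. Single genes did not overlap in 67.8% of cases in the knockdown and 71.2% under overexpression, and no such share was computed for ratios. The ratio restates the larger changes of Dppa2 given above and is not a separate result.

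Dppa3 (ENSMUSG00000046323), the maternal methylation regulator, lies on the plus strand of chromosome 6 at 122626410 to 122630272. It had 60.9 and 55.3 normalised reads in KD Zscan4 cells, against 56.4 and 74.1 in KD control cells. The libraries of the groups overlapped, and the log2 fold change of -0.15 (SE 0.21, limma-trend adjusted p = 0.614) did not pass. In the overexpression arm it had 87.2 and 120 normalised reads in OE Zscan4 cells, against 382 and 300 in OE control cells. Both OE Zscan4 libraries lay below both controls, as for 35.5% of all genes under overexpression. The log2 fold change was -1.72 (SE 0.16, limma-trend adjusted p = 2.24e-07), a 3.28-fold lower level, and 3.65% of genes changed more in either direction. Its change under overexpression thus ran opposite to that of Dppa2 and Dppa4. Dppa3 was counted in few reads, 117 over both KD Zscan4 libraries and 129 over both KD control libraries, which limits what the knockdown arm could detect.

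Dppa5a (ENSMUSG00000060461), the KH-domain gene, lies on the minus strand of chromosome 9 at 78367052 to 78368177. It had 22767 and 19810 normalised reads in KD Zscan4 cells, against 21487 and 20072 in KD control cells. The 2 groups overlapped, and the log2 fold change of 0.03 (SE 0.07, limma-trend adjusted p = 0.737) did not pass. In the overexpression arm it had 28796 and 29124 normalised reads in OE Zscan4 cells, against 26434 and 23848 in OE control cells. The log2 fold change was 0.21 (SE 0.08, limma-trend adjusted p = 0.0351), or 1.15-fold higher. This call was lost without OE Zscan4 replicate 1 (0.21), without OE Zscan4 replicate 2 (0.20) and without OE control replicate 2 (0.13), all on the log2 scale, and with a replicate block (0.21, limma adjusted p = 0.0892). In the knockdown Dppa5a passed the test only when KD Zscan4 replicate 2 was left out, at a log2 fold change of 0.13, and it was below 0 without KD Zscan4 replicate 1 (-0.068) and without KD control replicate 2 (-0.017).

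Dppa5a has unprocessed pseudogenes on the same chromosome, Dppa5b at 78245550 to 78246135 and Dppa5c at 78271998 to 78272583, and both were rows of the tables. Their annotated transcripts are identical to each other over 348 bases and match that of Dppa5a at 96.97% of 297 aligned bases. The stretch of transcript below, GENCODE M21 on GRCm38 and 90 bases long, is shown because it holds 5 of the 9 bases that differ between Dppa5a and its copies within the aligned part. Capitals mark those bases.
Dppa5a: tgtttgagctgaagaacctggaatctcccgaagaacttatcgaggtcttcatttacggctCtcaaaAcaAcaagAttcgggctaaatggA
Dppa5b and Dppa5c: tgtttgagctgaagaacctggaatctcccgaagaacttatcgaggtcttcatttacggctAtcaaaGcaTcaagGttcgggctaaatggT

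The first 60 bases of this stretch are the same in all 3 genes and do not tell them apart, so the values of the copies are uncertain. Dppa5b had 64.9 and 3.88 normalised reads in KD Zscan4 cells, against 58.2 and 98.8 in KD control cells. It had 4.25 and 58.2 in OE Zscan4 cells, against 12.4 and 4.12 in OE control cells. Dppa5c followed Dppa5b library by library, with 56.8 and 15.5 in KD Zscan4 cells, 45.7 and 108 in KD control cells, 11.7 and 62.0 in OE Zscan4 cells and 20.98 and 11.3 in OE control cells. For both copies the 2 libraries of KD Zscan4, and those of OE Zscan4, differed from each other by more than the group means did, and neither copy passed limma-trend in either arm. These outcomes depend on the test and on single libraries: edgeR called Dppa5b under overexpression (1.91, adjusted p = 0.0403), and without KD Zscan4 replicate 1, KD control replicate 1, OE Zscan4 replicate 1 or OE control replicate 1 both copies passed in the arm concerned. As a share of all reads given to Dppa5a and the copies, the copies took 0.0554% in OE Zscan4 replicate 1 (exact 95% binomial interval 0.0310% to 0.0913%) and 1.02% in KD control replicate 2 (0.878% to 1.18%), the lowest and highest of the 8 libraries. Intervals cover counting error only and leave out the spread between libraries. The libraries also carry no stated molecular identifiers, so reads may not be independent counts. A pseudogene copy of Dppa3 on chromosome X, Dppa3-ps, matches its transcript at 98.2% of 451 bases and, like Dppa1, was not analysed here.

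Levels were then set side by side across all 4 groups, with reads of the shared genes scaled jointly by TMM, since the arms had been normalised separately. Jointly scaled reads of Dppa2 averaged 2328 ± 9.62 in KD Zscan4 and 3885 ± 261 in KD control, and 2929 ± 134 in OE Zscan4 and 997 ± 3.04 in OE control (SD, n = 2 each). The order was thus KD control, OE Zscan4, KD Zscan4 and OE control, and each neighbouring pair in it differed. The smallest of these steps, OE Zscan4 over KD Zscan4, was 0.33 on the log2 scale (SE 0.06, limma-trend adjusted p = 0.00117), a contrast in which 26.5% of genes passed. Among all genes 50.8% passed for OE Zscan4 over KD control, 48.3% for KD Zscan4 over OE control, 36.2% for KD Zscan4 over KD control and 46.1% for OE Zscan4 over OE control in this scaling. Dppa4 averaged 2968 ± 134 in KD Zscan4 and 3633 ± 133 in KD control, and 3546 ± 44.9 in OE Zscan4 and 2320 ± 125 in OE control. Its order was the same, but OE Zscan4 and KD control did not differ beyond their spread (limma-trend adjusted p = 0.653). The lowest Dppa2 and Dppa4 levels of the study were thus those of OE control cells, not of KD Zscan4 cells. Zscan4c had another order, with 13.4 jointly scaled reads in KD Zscan4 and 574 in KD control, and 1032 in OE Zscan4 and 67.9 in OE control.

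Dppa3 averaged 58.1 ± 3.63 jointly scaled reads in KD Zscan4 and 65.6 ± 12.5 in KD control, and 104 ± 23.8 in OE Zscan4 and 342 ± 57.8 in OE control. The lowest pair, KD Zscan4 and KD control, did not differ beyond their spread (limma-trend adjusted p = 0.561). Dppa5a averaged 21299 ± 1980 in KD Zscan4 and 20891 ± 1046 in KD control, a pair that did not differ beyond its spread (limma-trend adjusted p = 0.804), and 29090 ± 330 in OE Zscan4 and 25231 ± 1777 in OE control, both above the knockdown arm. OE control over KD control was -1.96 (SE 0.06) for Dppa2, -0.65 (SE 0.06) for Dppa4, 2.37 (SE 0.20) for Dppa3 and 0.27 (SE 0.07) for Dppa5a on the log2 scale, in a contrast in which 61.2% of genes passed. For all 4 genes this was at least as large in size as either Zscan4 effect, a difference that was not tested. The arms differ in vector, drug, days of selection and clone, which cannot be told apart. Per kilobase of exon, Dppa5a ranked 14 to 21 among 17385 genes across the 4 groups, Dppa4 490 to 739, Dppa2 683 to 2592 and Dppa3 2751 to 8641.

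**Figure D3:**
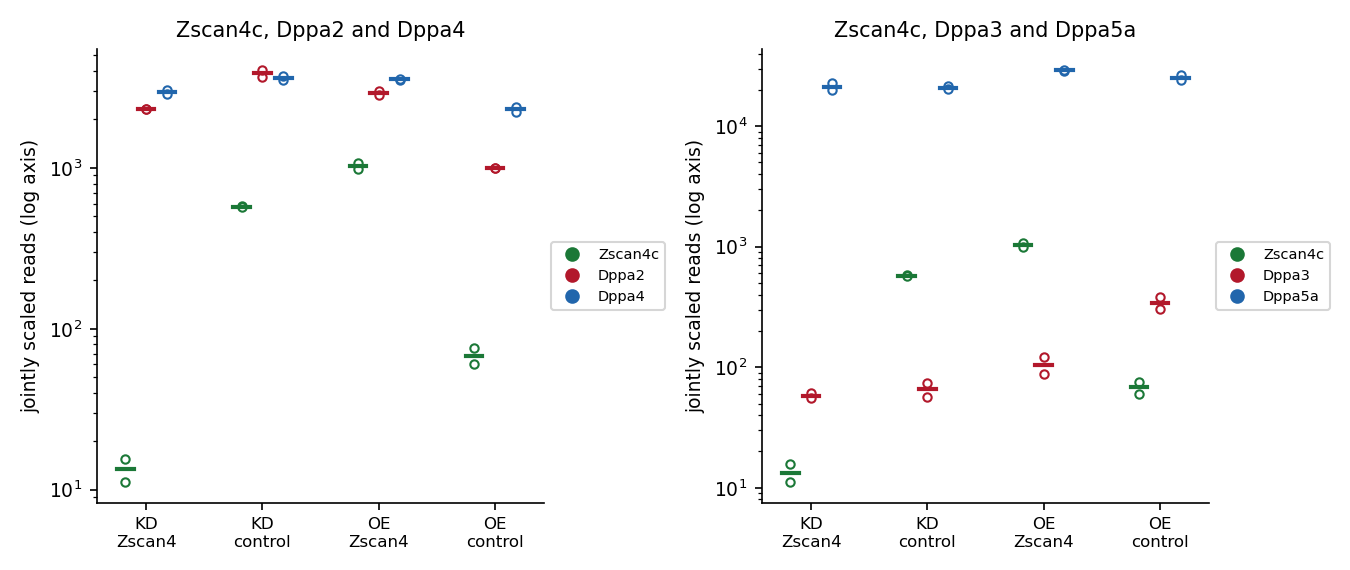
Jointly scaled reads (log axis) of the 4 Dppa genes and Zscan4c in the 4 groups, with circles for libraries and lines for means. Dppa2 and Dppa4 are lowest in OE control, where Dppa3 is highest, and Zscan4c is lowest in KD Zscan4.

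The genes beside each Dppa gene on its chromosome were read in the same way. Around Dppa3, Gdf3, a TGF-beta family ligand of ES cells and the nearest measured gene on one side, averaged 1786 ± 11.9 normalised reads in KD Zscan4 and 2325 ± 102 in KD control cells, and 1660 ± 21.6 in OE Zscan4 and 849 ± 38.4 in OE control cells. It fell in the knockdown and rose under overexpression, with log2 fold changes of -0.38 and 0.97 (limma-trend adjusted p = 2.95e-04 and 1.87e-08). Nanog, a core pluripotency factor 81.1 kb from Dppa3 on the other side, rose in both arms (0.35 and 0.48). Apobec1, a cytidine deaminase, fell under overexpression (-0.57). Under overexpression, the neighbours of Dppa3 thus included genes that fell with it (Apobec1) and genes that rose (Gdf3 and Nanog), and the other 3 measured did not pass. Among all genes 22.1% passed as lower and 22.3% as higher in that arm, so these counts are a description of the neighbours only.

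Around the Dppa2 and Dppa4 pair, Morc1, a germline repressor of transposons that starts 127 kb beyond Dppa2, rose in the knockdown (0.49) and fell under overexpression (-0.34), the opposite of both. Nectin3, a cell adhesion gene on the far side of Dppa4, starts at -1896 kb relative to the start of Dppa4. It fell in the knockdown (-0.45) and did not pass under overexpression (0.14). Beside Dppa5a, Ooep, a maternal-effect gene of the egg that starts 9.06 kb away and whose protein is also of the KH-like family, rose in both arms. It averaged 1109 ± 44.0 normalised reads in KD Zscan4 and 646 ± 29.4 in KD control cells, and 1375 ± 13.6 in OE Zscan4 and 987 ± 73.6 in OE control cells, with log2 fold changes of 0.78 and 0.48 (limma-trend adjusted p = 5.28e-06 and 7.41e-05). Ddx43, an RNA helicase of the germline 28.7 kb from Dppa5a, rose in the knockdown (0.84) and had 0.42 under overexpression, where it did not pass. Over protein-coding genes of chromosomes 6, 9 and 16 with a mean of at least 20, medians lay between -0.01 and 0.05 in both arms.

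**Figure D4:**
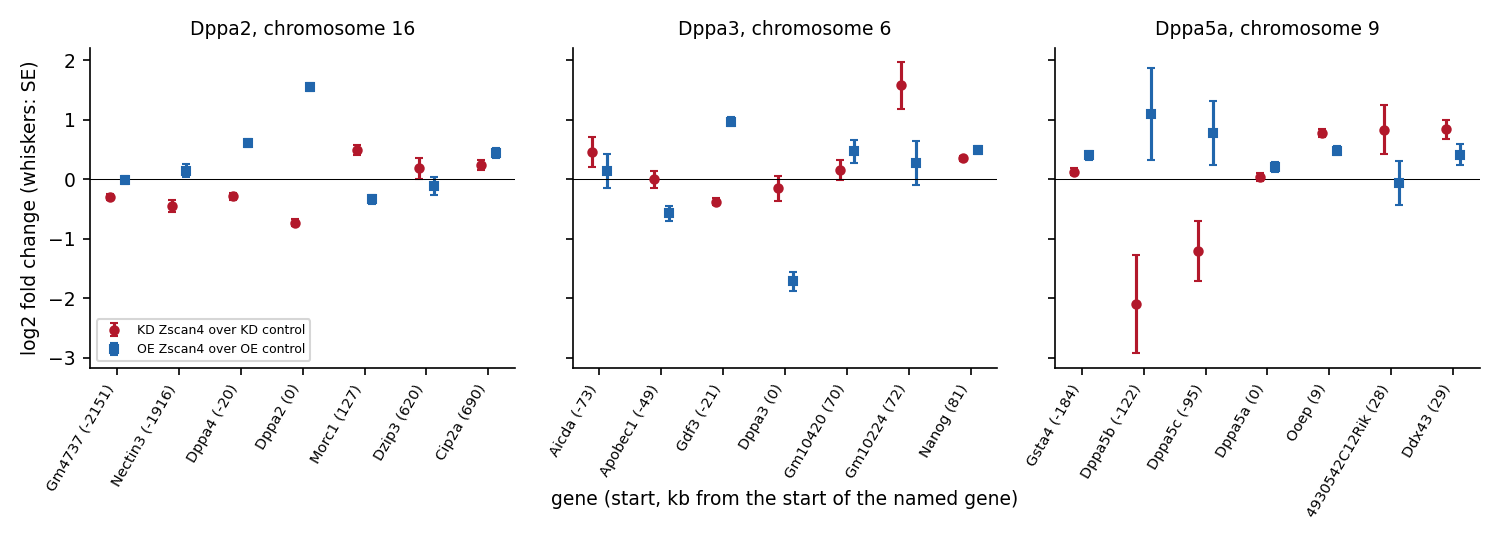
Log2 fold changes of the measured genes nearest to each Dppa gene, ordered by the distance of their start from that gene's start (kb), for overexpression (squares) and knockdown (circles), with standard errors as whiskers. Gdf3 and Nanog lie above 0 under overexpression on both sides of Dppa3, which lies at -1.72.

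Genes that act around these proteins were read from lists. For each, the count stands beside 18.5% of all genes lower and 17.2% higher in the knockdown, and 22.1% lower and 22.3% higher under overexpression. Of 31 listed 2-cell-like genes, downstream of Dppa2 and Dppa4 in the known order, 24 were rows of the knockdown table, and those fell, while 26 were rows of the overexpression table, of which 25 rose. The lowest mean of a row was 4.58 normalised reads in the knockdown table and 4.71 in the overexpression table, so a low gene could be a row through the group where it is high, and these counts are a description of the rows and not of all listed genes. The list includes the Zscan4 cluster, the target of the manipulation. Duxf3, which lies between the pair and the other 2-cell-like genes in the known order, is itself on the list and in these counts. It had 1 read over both KD Zscan4 libraries and 27 over both KD control libraries. That is a ratio per total reads of 0.0367 (exact 95% interval 0.000896 to 0.222). The log2 fold change of Duxf3 in the knockdown, -3.35 (limma-trend adjusted p = 0.0019), passed. It had 15 reads over both OE Zscan4 libraries and 8 over both OE control libraries, a ratio of 1.72 (0.683 to 4.67), and its log2 fold change of 1.06 did not pass (limma-trend adjusted p = 0.245). Medians over all genes were 0.0078 in the knockdown and -0.0022 under overexpression.

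Among the 13 DNA methylation genes, which include the proteins Dppa3 acts on, 10 fell and none rose in the knockdown (median -0.41), and 6 rose and 2 fell under overexpression (median 0.19). Dnmt3b, a de novo methyltransferase, had 1795 ± 39.6 normalised reads in KD Zscan4 and 4607 ± 84.6 in KD control cells, and 1563 ± 87.7 in OE Zscan4 and 1279 ± 41.7 in OE control cells. Its log2 fold changes were -1.36 and 0.29, and those of Dnmt3a, of the same class, were -0.32 and 1.14. Tet1 and Tet2, which oxidise methylcytosine, fell in the knockdown (-0.29 and -0.56) and rose under overexpression (0.72 and 1.02). Tet3, the oxidase Dppa3 is known to restrain in the zygote, fell in both arms. It averaged 152 ± 2.93 normalised reads in KD Zscan4 and 259 ± 27.2 in KD control cells, and 101 ± 6.67 in OE Zscan4 and 177 ± 8.95 in OE control cells, with log2 fold changes of -0.76 and -0.81. Uhrf1, the methylation maintenance factor bound by Dppa3, fell in the knockdown (-0.32) and did not pass under overexpression (0.09, limma-trend adjusted p = 0.311). Dnmt3l, their catalytically inactive cofactor, likewise fell in the knockdown (-0.71) and had 0.08 under overexpression, where it did not pass.

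A list of germline genes, many of which are silenced by promoter DNA methylation in other cells, together with the Dppa2-bound gene Nkx2-5 gave 6 higher and 1 lower of 17 in the knockdown (median 0.24) and none higher and 6 lower of 18 under overexpression (median -0.21). Mael and Tdrkh, piRNA pathway genes, rose in the knockdown (0.53 and 0.68) and fell under overexpression (-0.86 and -0.90). Tex101, a germ cell surface protein, had 19.0 ± 0.246 normalised reads in OE Zscan4 and 77.7 ± 0.663 in OE control cells and fell (-1.98). Syce1, a synaptonemal complex gene whose promoter Dppa2 is known to bind in mouse ES cells, had 577 ± 35.9 normalised reads in KD Zscan4 and 385 ± 64.8 in KD control cells, and rose (0.59). It had 673 ± 13.8 in OE Zscan4 and 677 ± 36.6 in OE control cells. Nkx2-5, a cardiac transcription factor also known as bound by Dppa2, had -0.18 and 0.08 and passed in neither arm.

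A list of MLL and Polycomb subunits, together with the SUMO ligase Pias4, gave 3 higher and 5 lower of 15 in the knockdown (median -0.00034) and 10 higher and 1 lower under overexpression (median 0.33). Jarid2 and Eed, both of Polycomb repressive complex 2, fell in the knockdown (-0.65 and -0.34) and rose under overexpression (0.74 and 0.69), while Suz12, of the same complex, rose in the knockdown (0.22) and fell under overexpression (-0.48). Kmt2b, an H3K4 methyltransferase, had -0.36 and 0.33 and passed in both arms. Rbbp5, an MLL subunit on chromosome 1, rose in both arms (0.82 and 0.43). Over protein-coding genes of chromosome 1 with a mean of at least 20, the median was 0.56 in the knockdown and -0.07 under overexpression. These medians bear on the chromosome 1 members of every list counted here. Whether the clones differ in chromosome number was not tested. Pias4, known to act on Dppa2, passed in neither arm (-0.02 and -0.16).

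Of 19 measured genes from a list of ES-cell-associated reprogramming candidates, 6 rose and 7 fell in the knockdown (median -0.12). Of 18 measured under overexpression, 12 rose and 3 fell (median 0.42). Myc, a growth factor-responsive transcription factor, had 683 ± 34.8 normalised reads in KD Zscan4 and 2241 ± 40.8 in KD control cells, and 790 ± 19.6 in OE Zscan4 and 195 ± 44.3 in OE control cells (log2 fold changes -1.71 and 2.03). Sox15, a Sox factor, ran the other way (0.58 and -1.13). Of 17 naive pluripotency genes, 7 rose and 6 fell in the knockdown (median 0.0058), and 10 rose and 2 fell under overexpression (median 0.27). Nr0b1 and Klf5, both transcription factors of this state, moved like Dppa2, down in the knockdown (-0.82 and -0.83) and up under overexpression (1.21 and 0.73). Zfp42, another gene of this state that encodes Rex1, rose in both arms (0.27 and 1.08). Pou5f1, which encodes Oct4, was not called in the knockdown (-0.13, limma-trend adjusted p = 0.0780) and rose under overexpression (0.53).

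The label of ES cells was checked on its markers. Summed levels of 5 markers (Pou5f1, Sox2, Nanog, Zfp42, Esrrb) were 87834 to 90405 normalised reads in KD Zscan4 and 82351 to 83189 in KD control cells, and 99341 to 99355 in OE Zscan4 and 65686 to 66866 in OE control cells. Markers of other cell types moved with the groups too. Their counts stand beside 18.5% of all genes lower and 17.2% higher in the knockdown, and 22.1% lower and 22.3% higher under overexpression. Of 17 measured primitive endoderm markers 15 fell in the knockdown, with summed levels of 7414 to 7913 in KD Zscan4 and 21871 to 22198 in KD control cells, and of 16 measured 11 fell and 1 rose under overexpression, with 6804 to 6850 in OE Zscan4 and 8747 to 9098 in OE control cells. Formative markers summed to 2887 to 2953 in KD Zscan4 and 5881 to 6135 in KD control cells, and to 2516 to 2676 in OE Zscan4 and 1726 to 1843 in OE control cells. Of 7 measured 1 rose and 4 fell in the knockdown, and of 6 measured 4 rose and none fell under overexpression. These sums include Dnmt3b, whose values are given above with the DNA methylation genes. Of 7 measured trophectoderm markers 3 fell and 1 rose in the knockdown (median -0.67), while the summed level ran the other way, and of 6 measured 2 fell and none rose under overexpression. They summed to 2467 to 2575 in KD Zscan4 and 2180 to 2190 in KD control cells, and to 2176 to 2262 in OE Zscan4 and 2440 to 2755 in OE control cells. Fibroblast markers summed to 370 to 375 in KD Zscan4 and 377 to 395 in KD control cells, with 1 of 7 higher and 1 lower, and to 316 to 332 in OE Zscan4 and 581 to 634 in OE control cells, with 3 of 6 lower and none higher (median -0.73). Cubn and Gata6, defining endoderm genes, averaged 11.5 and 20.9 normalised reads in KD Zscan4 and 635 and 425 in KD control cells. The part of these cell types in the levels of the Dppa genes was not tested.

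Genes whose profile was most like that of each Dppa gene were ranked over the 8 jointly scaled libraries by the root mean square of the difference between log2 profiles centred on their own mean, among 14751 genes. The libraries fall into 4 groups that all genes share, so the values are a description. For Dppa2 they included Noct (0.109) and Itga9 (0.127), where the profile of Dppa2 itself had a root mean square of 0.73. Dppa4 and Dppa2 differed by 0.48 in this measure, which ranked Dppa4 1126 in likeness to Dppa2 and Dppa2 10591 in likeness to Dppa4, whose own root mean square was 0.26. The measure counts the size of a profile as well as its shape. The Pearson correlation of the Dppa2 and Dppa4 profiles over the 8 libraries was 0.97. For Dppa4 the most alike genes were Rsl24d1 (0.041), A730015C16Rik (0.043) and Rbbp4 (0.043). For Dppa3 they were Anxa2 (0.237), Jsrp1 (0.261) and Fabp3 (0.288). For Dppa5a they were Prdx1 (0.042), Adh5 (0.046) and Nkiras1 (0.046). Fabp3, a fatty acid binding protein, was likewise highest in OE control, with 1176 ± 85.6 normalised reads in OE Zscan4 and 4104 ± 274 in OE control cells, and 861 ± 92.3 in KD Zscan4 and 1103 ± 129 in KD control cells.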

How the data were processed

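Polyadenylated RNA of 8 libraries was sequenced. Per the submitters' processing notes, cutadapt, HISAT2, featureCounts and DESeq2 were used with mm10; versions and roles are not given in the sources used here. The authors deposited 1 gene table per arm of normalised signal: reads divided by 1 size factor per library, the same as median-of-ratios factors. Times that factor, 100% of values came within 0.01 of whole reads. The use of strand in counting is not stated, which leaves overlapping genes uncertain.

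Samples were grouped by title. The plan named edgeR for counts; because values are normalised signal, limma-trend (limma 3.58.1, R 4.3.3) on log2(value + 1) was the test, 2 libraries against 2, two-sided, and a fold change understates that of low genes. All deposited genes were tested. Recovered reads went to edgeR 4.0.16 and DESeq2 1.42.0 as alternatives and to the joint TMM scaling. The fits were tested on simulated data. Replicates differed beyond sampling noise (chi-square per degree of freedom 2.81 to 4.71). Names come from GENCODE M21 on GRCm38, which left 25 and 33 genes of the tables without a symbol.

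The 4 genes and all lists were chosen with earlier results of these data known. Genes named were these 4, other Dppa rows, fixed single genes, up to 4 passing members of each list with the largest change, up to 3 measured neighbours on each side, and the 3 most alike profiles; not every gene so named is printed, and 1 of the alike profiles is not reported here. Alternatives were other pseudocounts, a minimum mean of 20, TMM, edgeR, DESeq2, limma-voom, all 8 libraries in 1 fit, a replicate block and leaving out each library.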

Additional observations from a re-analysis of the deposited data

Results flagged for a closer look

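The Dppa2 effect differed between the arms by 2.28 on the log2 scale (overexpression effect minus knockdown effect, SE 0.09), with opposite directions in the arms. The same test gave 0.90 for Dppa4, again with opposite directions. For Dppa3 it gave -1.56, with a fall under overexpression and no call in the knockdown. The 3 results are listed because the test of the difference itself passed.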

How the results depend on the processing

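Directions and calls of the 4 genes held in 154 of 164 alternatives. Those of the order of their levels held in 24 of 24, but only joint median-of-ratios scaling and edgeR were tried there. No library was left out for the levels. Dppa2 kept its calls throughout, at -0.80 to -0.66 in the knockdown, 1.501 to 1.60 under overexpression and 2.21 to 2.35 for the difference when single libraries were left out; Dppa4 did so at -0.34 to -0.23, 0.55 to 0.67 and 0.84 to 0.95. Dppa3 ran from -0.35 to 0.040 in the knockdown, where it lost its direction without KD control replicate 2, from -1.95 to -1.49 under overexpression and from -1.79 to -1.33 for the difference. Dppa5a ran from -0.068 to 0.13, from 0.13 to 0.28 and from 0.073 to 0.27; its overexpression call was lost with the replicate block (0.21, limma adjusted p = 0.0892), and its difference passed without KD Zscan4 replicate 1 (0.27) or OE control replicate 1 (0.25). The cause was not tested.

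Genes passing in the knockdown numbered 6403, and 4125 with DESeq2. Leaving out libraries gave 4416 to 6087 in the knockdown, 5964 to 7975 under overexpression and 6619 to 7397 for the difference. On recovered reads, edgeR called 6483, 8185 and 7866 genes.

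Replicate numbers are shared between groups but the labels give them no meaning, and same-numbered libraries deviated with correlations across genes of -0.059 in the knockdown and -0.039 under overexpression. With the replicate block, 6924 genes passed in the knockdown and 8188 under overexpression.

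In the knockdown the copies passed with the replicate block (Dppa5b -2.10, Dppa5c -1.20) and, for Dppa5b, with limma-voom (-2.17, adjusted p = 0.0362).

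Smaller values turned when single libraries were left out. Under overexpression the ranges were -0.66 to 2.84 for Dppa5b, -0.37 to 1.94 for Dppa5c, -0.062 to 0.048 for Syce1, -0.035 to 0.20 for Nkx2-5 and -0.015 to 0.29 for Nectin3. In the knockdown they were -0.41 to 0.049 for Nkx2-5, -0.072 to 0.025 for Pias4 and -0.10 to 0.098 for Apobec1, and the Tet3 difference ran from -0.16 to 0.057. Apobec1 in the knockdown also turned with edgeR (0.0032), DESeq2 (0.0034) and limma-voom (0.0031).

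TMM scaling for the difference was chosen after seeing the data and changed no call of the 4 genes. Depth limits Dppa3 in the knockdown and Duxf3 in both arms.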
